A study of Mus musculus with 12 samples.

Results

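The genes described here are 10 genes of the paraventricular and magnocellular neurons of the hypothalamus, chosen by symbol from the 32494 genes of the deposited expression table. They are the transcription factors Sim1, Otp, Pou3f2 and Arnt2, the hormones Oxt, Avp, Crh and Sst, and the receptors Oxtr and Crhr1. Messenger RNA was sequenced from the hypothalamus of 12 male mice. All 12 carried floxed Smc3 alleles and all received tamoxifen, and the tissue was collected 5 weeks later. The 7 mice grouped as WT lacked the Camk2a-cre/ERT2 transgene, and the 5 mice grouped as cKO carried it. Camk2a-cre/ERT2 drives a tamoxifen-activated Cre recombinase from a promoter active in forebrain excitatory neurons, which are not all the cells of the hypothalamus. The age given is 8 weeks, without the step it refers to. Mice are named by their group and number, and each number is taken as a separate mouse.

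The paraventricular nucleus and the supraoptic nucleus hold the magnocellular neurons, large cells that make oxytocin (Oxt) or vasopressin (Avp) and release it into the blood from the posterior pituitary. Smaller paraventricular neurons make corticotropin-releasing hormone (Crh), which starts the stress response of the pituitary, and somatostatin (Sst), made most densely in the nearby periventricular nucleus, holds back growth hormone release. Sim1, which pairs with Arnt2, and the homeodomain protein Otp are needed for these neurons to form, and Pou3f2 (also called Brn2) acts in the same lineage. Oxtr and Crhr1 are the receptors for oxytocin and for corticotropin-releasing hormone, and both are made in many brain regions.

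The promoters of 3 hormone genes are shown because the results turn on them: Oxt and Avp varied together over the mice, and Sst was the hormone with the clearest group difference. Each line gives the 250 bases before the start of the gene as RefSeq places it on GRCm38.p6, 5′ to 3′ on the strand of the gene. Capitals mark matches to short motifs: AGGTCA (a nuclear receptor core, on either strand) in Oxt, CACGTG (an E-box) in Avp and TGACGTCA (the cAMP response element) in Sst.
Oxt promoter, chr2:130575919-130576168, + strand: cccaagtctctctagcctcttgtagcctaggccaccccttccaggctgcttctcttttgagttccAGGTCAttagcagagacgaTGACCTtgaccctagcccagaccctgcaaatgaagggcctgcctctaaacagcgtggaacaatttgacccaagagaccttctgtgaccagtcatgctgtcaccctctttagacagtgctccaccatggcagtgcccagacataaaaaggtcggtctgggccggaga
Avp promoter, chr2:130582589-130582838, - strand: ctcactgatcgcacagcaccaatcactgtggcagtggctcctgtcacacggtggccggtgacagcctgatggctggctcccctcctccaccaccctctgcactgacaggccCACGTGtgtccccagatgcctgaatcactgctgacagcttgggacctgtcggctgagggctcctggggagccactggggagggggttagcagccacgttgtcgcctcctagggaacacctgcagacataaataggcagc
Sst promoter, chr16:23890845-23891094, - strand: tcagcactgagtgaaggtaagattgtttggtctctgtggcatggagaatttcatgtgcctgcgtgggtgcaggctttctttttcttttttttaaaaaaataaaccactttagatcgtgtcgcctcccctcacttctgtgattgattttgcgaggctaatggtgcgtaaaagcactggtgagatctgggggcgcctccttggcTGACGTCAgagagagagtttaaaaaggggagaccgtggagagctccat
Oxt held 2 matches to AGGTCA, 185 to 180 bases before the start on the + strand and 166 to 161 bases before it on the - strand. Among 32851 promoters of this length, 14.02% held AGGTCA on either strand, 6.02% held CACGTG and 1.55% held TGACGTCA. ACGTG, a core bound by pairs of Sim1 and Arnt2 proteins, occurred 3 times in the Avp promoter, where 2 of the matches lie on opposite strands of the CACGTG element, and in 16.6% of all promoters. Pou3f2 had 1 match to ACGTG and Oxtr had 2, again on opposite strands of a CACGTG element. Oxtr also held 1 match to AGGTCA. Searches on both strands for TAATTA, a homeodomain motif found in 4.84% of all promoters, and for ATGCAAAT, the octamer, found in 1.60%, gave 0 matches in the 9 members found in the table (all but Crh). These matches are descriptions of letters in a window and not binding sites measured here. GENCODE M21, used for gene positions below, starts Sst earlier than RefSeq does. Part of the Sst window, with its marked element, therefore lies inside the gene as positioned below.

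Levels are in CPM, the authors' unit: the reads of a gene divided by a scaled library size, so that libraries of different depth can be compared. Depth was 17.1 to 24.0 M reads (megareads) in 11 libraries and 68.7 M in WT 1, and 3 reads corresponded to 0.0436 to 0.178 CPM. This floor covers counting error only, since the reads carry no molecular identifiers. Smc3, the gene meant to be deleted, was higher in the libraries labelled cKO, where it averaged 131 ± 10.3 CPM (SD, n = 5), than in WT, where it averaged 81.6 ± 3.14 CPM (SD, n = 7). The log2 difference was 0.67 (SE 0.05, adjusted p = 3.06e-05 by limma). That direction goes against the label, and the titles of all 12 samples, cKO included, carry the word control, so the groups are called by their labels throughout.

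Oxt and Avp showed that 4 libraries stand apart from the other 8. WT 4, WT 5, cKO 12 and cKO 13 had Oxt between 0.280 and 2.33 CPM, while the other 8 libraries had 69.5 to 348 CPM. Avp was between 0.793 and 6.46 CPM in these 4 libraries and between 29.0 and 125 CPM in the other 8. Among the 12 libraries the same 4 also had the highest summed level of 5 mammillary body markers (Foxb1, Lmx1b, Barhl1, Foxa1 and Lmx1a), which mark a region at the back of the hypothalamus. The sum was 64.8 CPM in WT 5, 73.7 CPM in WT 4, 73.1 CPM in cKO 13 and 99.97 CPM in cKO 12, and 7.09 to 56.9 CPM in the others. The summed level of 6 oligodendrocyte markers was 8176 to 9420 CPM in these 4 libraries and 3782 to 6477 CPM in the rest. Ucn3, the peptide urocortin 3, ranged from 0 to 0.142 CPM in the 4 and from 1.82 to 9.44 CPM in the rest. Because Oxt and Avp set these libraries apart, the group differences below are given over all 12 libraries and, for the members and most other genes named, again over the 8 that remain (5 WT and 3 cKO), a choice made after the values were seen. Other defining hypothalamic markers also varied: Rax was at most 0.53 CPM in every library, and Pmch was 1.03 CPM in WT 11 against 14.4 to 138 CPM in the other 11. The 10 defining markers summed were Nkx2-1, Rax, Sim1, Otp, Nr5a1, Pomc, Hcrt, Pmch, Six3 and Six6. Their summed level was lowest in WT 5 (78.8 CPM) and WT 4 (94.7 CPM). It was highest in cKO 14 (488 CPM), where Pomc alone was at 153 CPM.

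**Figure D1:**
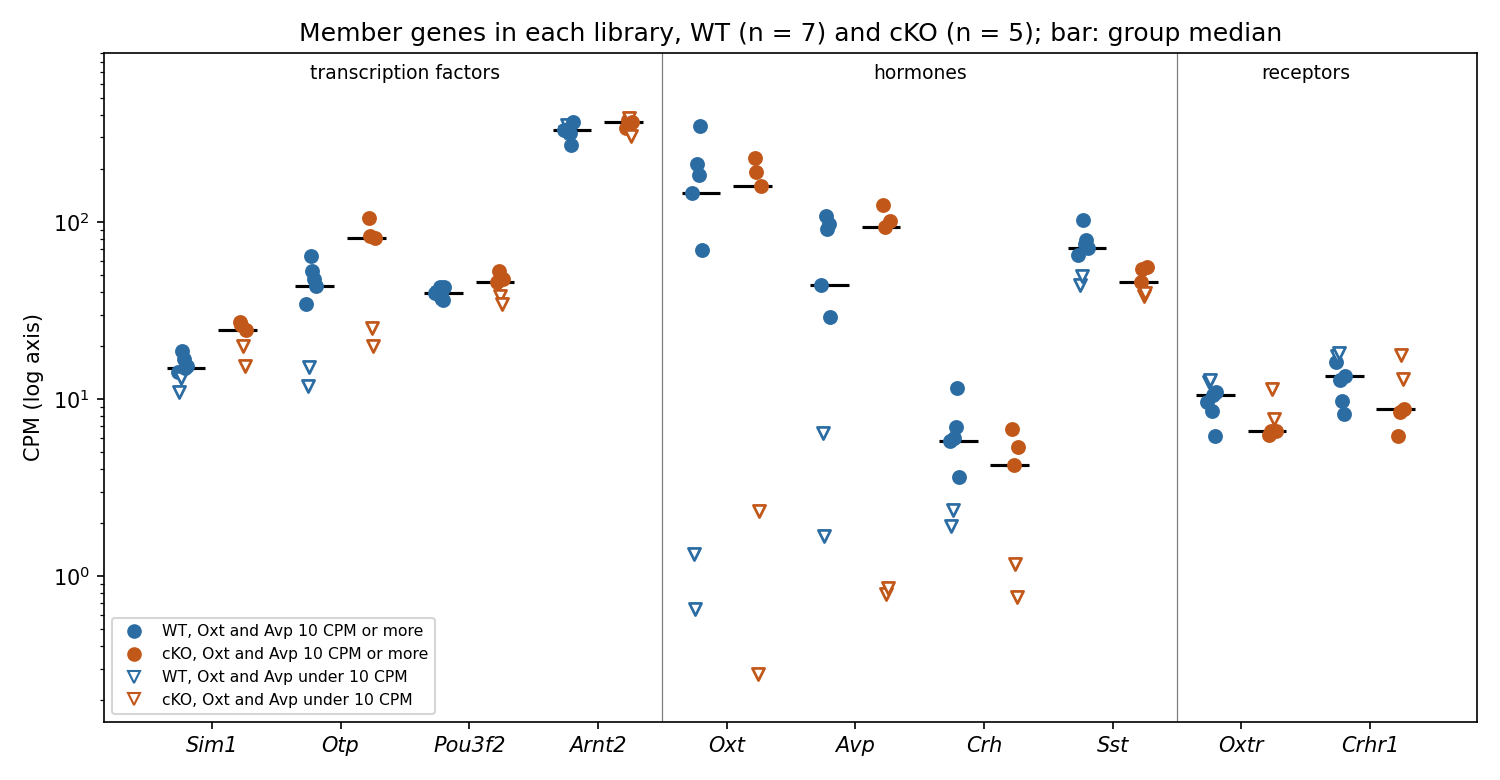
CPM on a log axis for each of the 10 genes in each library, WT in blue and cKO in orange, with a bar at the median of each group. Open triangles are the 4 libraries with Oxt and Avp under 10 CPM, which are also the lowest 4 for Otp and Crh.

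Per length of exon, Oxt was the highest member in the WT libraries, at 255 ± 233 CPM per kb (SD, n = 7), a mean whose spread comes from values of 1.21 to 648 CPM per kb. Sst followed at 96.4 ± 27.2, then Avp at 93.7 ± 77.3 and Arnt2 at 42.7 ± 3.93 CPM per kb (SD, n = 7). Otp was at 13.4 ± 6.75, Pou3f2 at 7.13 ± 0.436 and Crhr1 at 5.58 ± 1.55 CPM per kb (SD, n = 7). The lowest were Crh at 4.15 ± 2.51, Oxtr at 2.13 ± 0.481 and Sim1 at 1.73 ± 0.288 CPM per kb (SD, n = 7). In this order each gene overlapped its neighbour in range over the WT libraries, except that the lowest Arnt2 value (35.2) lay above the highest Otp value (22.4 CPM per kb). In the libraries labelled cKO, Sim1 was at 2.63 ± 0.567 and Oxtr at 1.61 ± 0.445 CPM per kb (SD, n = 5), so the lowest 2 places were taken in the other order by overlapping values.

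Sim1 was higher in the libraries labelled cKO. This gene, at chr10:50894754-50989152 on the + strand (GRCm38, GENCODE M21 annotation, as for all positions of genes here), encodes the factor that specifies the paraventricular nucleus. Its lowest, median and highest levels in the 7 WT libraries were 10.9, 15.04 and 18.6 CPM. In the libraries labelled cKO it was at 27.1 CPM in cKO 8, 26.2 in cKO 9, 20.01 in cKO 12, 15.4 in cKO 13 and 24.6 CPM in cKO 14. Of these 5 values 4 lie above every WT value, and cKO 13 lies inside the WT range. The means were 22.7 ± 4.89 CPM (SD, n = 5) and 14.9 ± 2.48 CPM (SD, n = 7), a ratio of 1.52. After log2(CPM + 1), a transform that shrinks the changes of genes with few reads, the difference was 0.56 (SE 0.14, limma adjusted p = 0.0206 over 15359 genes). An exact permutation test of the CPM means (792 permutations) gave p = 0.00505. Without the 4 libraries set apart the ranges did not overlap, with 14.3 to 18.6 CPM in WT and 24.6 to 27.1 CPM in cKO, and the difference was 0.67 (SE 0.08, limma adjusted p = 0.00576). Among those 4, cKO 12 and cKO 13 were again above WT 4 (10.9 CPM) and WT 5 (13.2 CPM). In tissue of mixed cells such a difference can come from more cells of a type or more RNA per cell, and these cannot be told apart.

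The Sim1 call depended on single libraries and on tissue markers. Without cKO 9 the adjusted p was 0.0518 (log2 fold change 0.51), and without cKO 14 it was 0.05004 (log2 fold change 0.53). The summed level of 7 neuron markers was 5053 to 5487 CPM in the libraries labelled cKO and 4469 to 4987 CPM in WT, without overlap. Their score, the mean of log2(CPM + 1), was 9.02 to 9.13 in cKO and 8.88 to 9.04 in WT, where cKO 12 lay below WT 7. With that score as a covariate the Sim1 difference was 0.82 (SE 0.20, limma adjusted p = 0.0631). Its unadjusted limma p was 0.00147 there and 0.00134 without a covariate, while 244 and 2172 of all tested genes passed. Thalamic markers had summed levels of 694 to 1027 CPM in cKO and 843 to 1406 CPM in WT, all 8 detected, and with their score as a covariate the Sim1 difference was 0.51 (SE 0.19, adjusted p = 0.127). With the mammillary score as a covariate it was 0.53 (SE 0.11, adjusted p = 0.00550). The summed level of the defining hypothalamic markers was 164 to 488 CPM in cKO and 78.8 to 336 CPM in WT, with overlap. That sum includes Sim1 and Otp themselves, so it is not a separate measure of the tissue for either gene. Its part in the differences of Sim1 and of Otp, described next, was not tested.

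Otp (chr13:94875602-94885130, + strand), the homeodomain factor of the same neurons, split the libraries first by the hormone pattern and then by group. Its WT levels had a minimum of 11.8, a median of 43.4 and a maximum of 64.5 CPM, with WT 4 (11.8) and WT 5 (15.1 CPM) far below the other 5. The libraries labelled cKO had 106 CPM in cKO 8, 83.4 in cKO 9, 25.2 in cKO 12, 19.9 in cKO 13 and 80.7 CPM in cKO 14. Over the 12 libraries the groups overlapped and the difference of 0.62 (SE 0.49) did not pass (limma adjusted p = 0.418). Over the 8 libraries every cKO value (80.7 to 106 CPM) was above every WT value (34.4 to 64.5 CPM). There the means were 89.9 ± 13.6 CPM (SD, n = 3) and 48.5 ± 11.2 CPM (SD, n = 5), with a log2 difference of 0.90 (SE 0.17, limma adjusted p = 0.0163). The exact permutation test over these 8 libraries (56 permutations) gave p = 0.0179 for Otp and for Sim1, which is the smallest it can give. The 4 libraries left out are also the 4 lowest for Otp, so leaving them out cuts its own spread. Its p-values over the 8 libraries are therefore descriptions only.

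Pou3f2 (chr4:22482780-22488366, - strand), a POU factor of neuroendocrine neurons, varied little: 36.3 to 43.0 CPM in WT with a median of 39.6 CPM. It was at 45.6 CPM in cKO 8, 52.5 in cKO 9, 38.3 in cKO 12, 34.6 in cKO 13 and 47.8 CPM in cKO 14. The 3 highest cKO libraries for Pou3f2 were those that also had Oxt and Avp, and the other 2 lay within or below the WT range. The difference was 0.12 (SE 0.09, limma adjusted p = 0.377) over 12 libraries and 0.27 (SE 0.07, adjusted p = 0.0366) over 8. Arnt2 (chr7:84246278-84410176, - strand), the dimer partner of Sim1 and made broadly in neurons, was at 271 to 365 CPM in WT (median 332) and 305 to 385 CPM in cKO. Its ranges overlapped in both sets, and its difference was 0.11 (SE 0.07, adjusted p = 0.324) over 12 libraries and 0.16 (SE 0.08, adjusted p = 0.236) over 8. An antisense gene, Gm30873, overlaps Arnt2 at 0.427 to 1.23 CPM and could share reads with it, since the strand setting of the counting is not given in the sources used here.

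For Oxt (chr2:130576173-130577054, + strand) the libraries differed far more than the groups. WT levels were 145 CPM in WT 1, 1.33 in WT 4, 0.651 in WT 5, 213 in WT 6, 183 in WT 7, 348 in WT 11 and 69.5 CPM in WT 15. The libraries labelled cKO had 231 CPM in cKO 8, 190.5 in cKO 9, 0.280 in cKO 12, 2.33 in cKO 13 and 159 CPM in cKO 14. Both groups hold 2 libraries near 0, and the lowest value rests on 6 reads. The log2 difference was -0.60 (SE 1.69, limma adjusted p = 0.845) over the 12 libraries. Over the 8 it was 0.18 (SE 0.40), and for Oxt and Avp this second value is a description only, because these genes chose the libraries.

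Avp (chr2:130580620-130582554, - strand), whose gene ends 3565 bases from the end of Oxt on the opposite strand, followed the same libraries. It was at 44.1 CPM in WT 1, 6.46 in WT 4, 1.67 in WT 5, 108 in WT 6, 91.6 in WT 7, 97.9 in WT 11 and 29.0 CPM in WT 15. In the libraries labelled cKO it was at 125 CPM in cKO 8, 93.9 in cKO 9, 0.793 in cKO 12, 0.855 in cKO 13 and 102 CPM in cKO 14. WT 4 had a higher Avp level than the other 3 libraries set apart. The sign of the group difference depended on the scale: the ratio of mean CPM, cKO over WT, was 1.19, while the log2 difference was -0.56 (SE 1.29, limma adjusted p = 0.808). Over the 8 libraries the log2 difference was 0.68 (SE 0.38). The 8 pituitary markers had summed levels of 4.21 to 6.85 CPM in WT and 4.99 to 16.1 CPM in cKO, highest in cKO 14 and cKO 8, and their part in the hormone values was not tested.

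Crh (chr3:19693401-19695396, - strand) was low and split in the same way. WT 4 and WT 5 had 1.92 and 2.37 CPM, and the other WT libraries had 3.65 to 11.6 CPM. The cKO levels were 6.80 CPM in cKO 8, 4.26 in cKO 9, 1.17 in cKO 12, 0.760 in cKO 13 and 5.39 CPM in cKO 14, the lowest of them from 16 reads. Its difference was -0.54 (SE 0.42, limma adjusted p = 0.410) over 12 libraries and -0.21 (SE 0.26, adjusted p = 0.629) over 8, with overlapping ranges in both. With the mammillary score as a covariate Crh was lower in cKO by a log2 difference of -0.67 (SE 0.18, adjusted p = 0.0205). With the thalamic score the Crh difference was -0.13 (SE 0.55, limma adjusted p = 0.912) and with the neuron score -0.33 (SE 0.67, adjusted p = 0.849), so the value and the call depended on the covariate.

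Sst (chr16:23889573-23890958, - strand) was the hormone with the least spread between libraries, and its mean was lower in the libraries labelled cKO. The WT minimum was 43.9, the median 71.0 and the maximum 103 CPM, with WT 4 (43.9) and WT 5 (49.7 CPM) the lowest 2. Levels in cKO were 46.0 CPM in cKO 8, 54.0 in cKO 9, 38.0 in cKO 12, 39.8 in cKO 13 and 55.5 CPM in cKO 14. Only WT 4 and WT 5 lay inside the cKO range. The means were 46.7 ± 7.96 CPM (SD, n = 5) against 69.5 ± 19.6 CPM (SD, n = 7), and the log2 difference of -0.53 (SE 0.18) missed the threshold (limma adjusted p = 0.0602). The exact permutation test gave p = 0.0354 for Sst. Over the 8 libraries Sst was at 46.0 to 55.5 CPM in cKO and 64.8 to 103 CPM in WT, and the difference of -0.58 (SE 0.13) passed (limma adjusted p = 0.0239). On whole reads recovered from the CPM values the adjusted p was 0.0489 with edgeR's quasi-likelihood test and 0.0112 with DESeq2. On simulated data DESeq2 made more false calls than its threshold allows. With the neuron score as a covariate of the limma fit the Sst difference shrank to -0.26 (SE 0.27, adjusted p = 0.663). Sst is also made by interneurons of the cortex, hippocampus and striatum, so its RNA here need not come from the periventricular nucleus alone.

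The receptors showed the opposite library pattern to the hormones. Oxtr (chr6:112473683-112489943, - strand) had WT levels of 6.20 to 12.8 CPM with a median of 10.6 CPM, and WT 4 (12.5) and WT 5 (12.8 CPM) were the highest. It was at 6.25 CPM in cKO 8, 6.57 in cKO 9, 11.4 in cKO 12, 7.74 in cKO 13 and 6.57 CPM in cKO 14. Crhr1 (chr11:104132855-104175523, + strand) had WT levels of 8.22 to 18.1 CPM with a median of 13.6 CPM, again highest in WT 4 (17.5) and WT 5 (18.1 CPM). Its cKO levels were 6.21 CPM in cKO 8, 8.43 in cKO 9, 17.8 in cKO 12, 12.9 in cKO 13 and 8.76 CPM in cKO 14. Both receptors were thus highest, within each group, in the libraries where Oxt, Avp and Crh were lowest. The Oxtr difference was -0.36 (SE 0.17, limma adjusted p = 0.156) over 12 libraries and -0.43 (SE 0.15, adjusted p = 0.0927) over 8. For Crhr1 it was -0.35 (SE 0.23, limma adjusted p = 0.323) over 12 libraries and -0.55 (SE 0.19, adjusted p = 0.0906) over 8.

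Over the 12 libraries 1 of the 10 members passed the threshold, Sim1, against 14.1% of all 15359 genes tested. The median log2 difference of the members was -0.36, beside 0.01 over all tested genes. Over the 8 libraries 4 of the 10 passed, Sim1, Otp and Pou3f2 upward and Sst downward, against 10.3% of 15364 genes. The libraries left out were the lowest for Otp, so its place in that count is a description only. The same 4 members had ranges that did not overlap between the groups over the 8 libraries, which held for 21.6% of all genes there, while over the 12 libraries 0 of 10 members had such ranges and 6.73% of all genes did. All 10 members passed the minimum mean of 1 CPM. In the authors' deposited table, 4.94% of all genes had a false discovery rate under 0.05, and 2 members did: Sim1 at a log2 fold change of 0.61 (false discovery rate 0.00242) and Sst at -0.58 (0.0294).

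**Figure D2:**
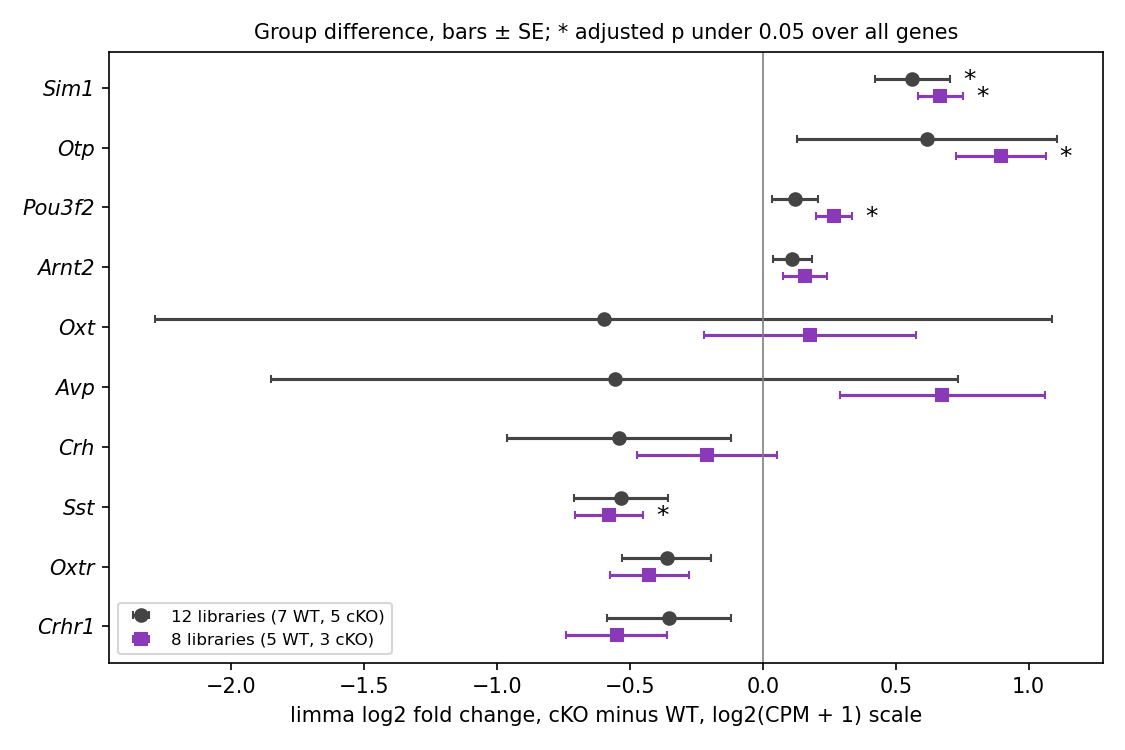
Group difference of each member on the log2(CPM + 1) scale, cKO minus WT, with bars of 1 SE, over 12 libraries (black) and over 8 (purple); stars mark a limma adjusted p under 0.05. Oxt and Avp have bars over 1 log2 unit to each side across 12 libraries, while Sim1 is at 0.56 and 0.67.

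Mouse by mouse, Oxt and Avp moved over a wider range than the factors. From the lowest to the highest library, Oxt spanned 0.280 to 348 CPM, Avp 0.793 to 125 CPM, Crh 0.760 to 11.6 CPM and Sst 38.0 to 103 CPM. Otp spanned 11.8 to 106 CPM, Sim1 10.9 to 27.1 CPM and Pou3f2 34.6 to 52.5 CPM. Sim1 was lower, within each group, in the 4 libraries set apart. It was at 10.9 CPM in WT 4 and 13.2 in WT 5 against 14.3 to 18.6 CPM in the other WT libraries. In cKO 12 and cKO 13 it was at 20.01 and 15.4 CPM against 24.6 to 27.1 CPM in the other cKO libraries. Otp had a larger step: in these 4 libraries it was at 11.8 to 25.2 CPM and in the other 8 at 34.4 to 106 CPM. Pou3f2 and Arnt2 overlapped between these 4 libraries and the others.

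**Figure D3:**
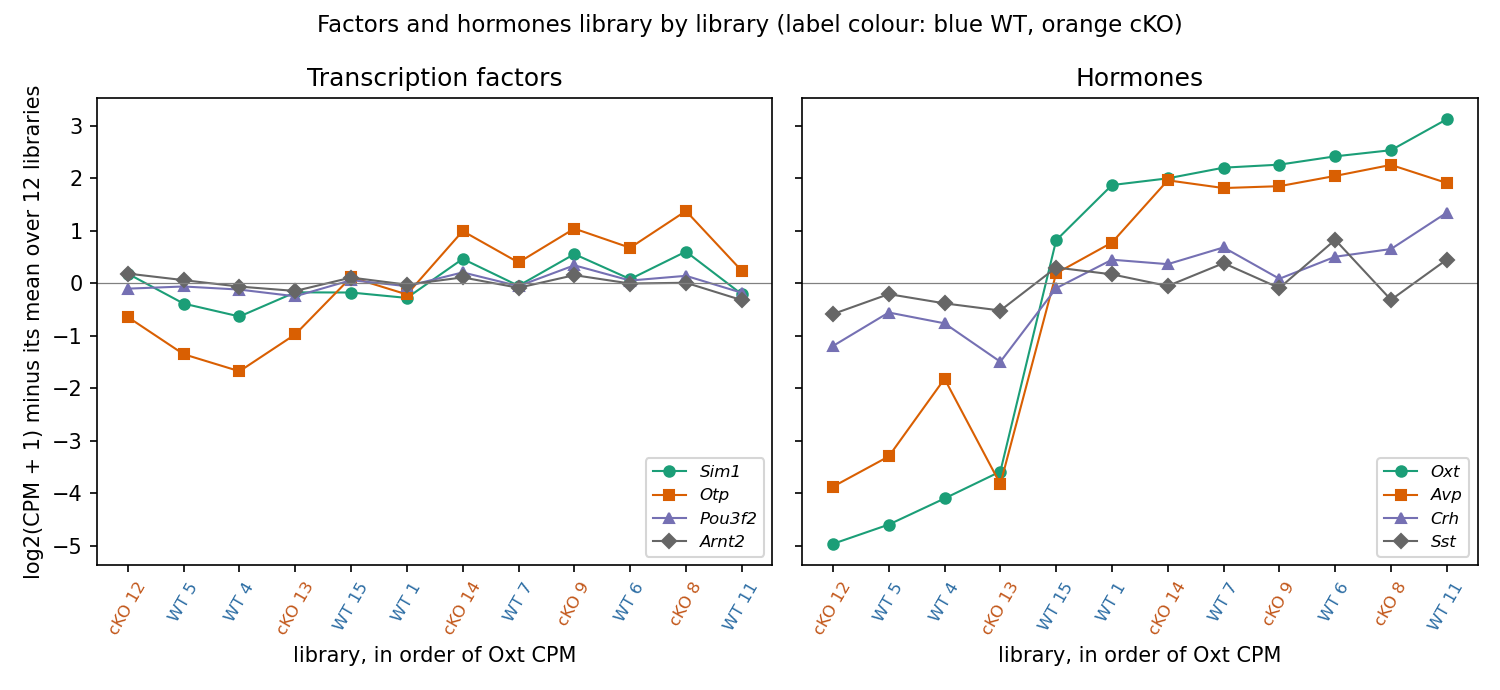
Each factor (left) and hormone (right) in each library as log2(CPM + 1) minus its mean over the 12 libraries, with the libraries in order of Oxt CPM. Oxt and Avp step up between cKO 13 and WT 15, Otp steps less and Sim1 less again, though within each group Sim1 is lowest in the leftmost 4 libraries.

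The libraries with the highest mammillary marker sums had the lowest Oxt and Otp levels. WT 11 and cKO 8 had the lowest sums, 8.06 and 7.09 CPM, and the highest Oxt levels, 348 and 231 CPM. Their 5 markers were not alike: Foxb1 was at 7.35 CPM in WT 11 and 5.87 in cKO 8, while Lmx1a was at 0 and 0.252 CPM. Otp was highest in cKO 8 but, at 47.4 CPM in WT 11, was in the middle of the WT range. The sum was 21.2 CPM in cKO 9, 23.7 in cKO 14, 26.4 in WT 7 and 30.9 CPM in WT 6. Both cKO sums were below both WT sums, so these libraries are not matched. In this order Sim1 was at 26.2, 24.6, 16.9 and 18.6 CPM. Otp in the same 4 libraries was at 83.4, 80.7, 53.0 and 64.5 CPM, again higher in the libraries labelled cKO. With the mammillary score as a covariate 5 members passed, against 21.5% of all genes: Sim1 upward, and Crh, Sst, Oxtr and Crhr1 downward. None of the 10 passed limma with the thalamic or the neuron score, where unadjusted p was under 0.05 for Sim1, Oxtr and Crhr1 with the first and for Sim1 and Arnt2 with the second. Otp did not pass with the mammillary score, at 0.49 (SE 0.31, limma adjusted p = 0.275).

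**Figure D4:**
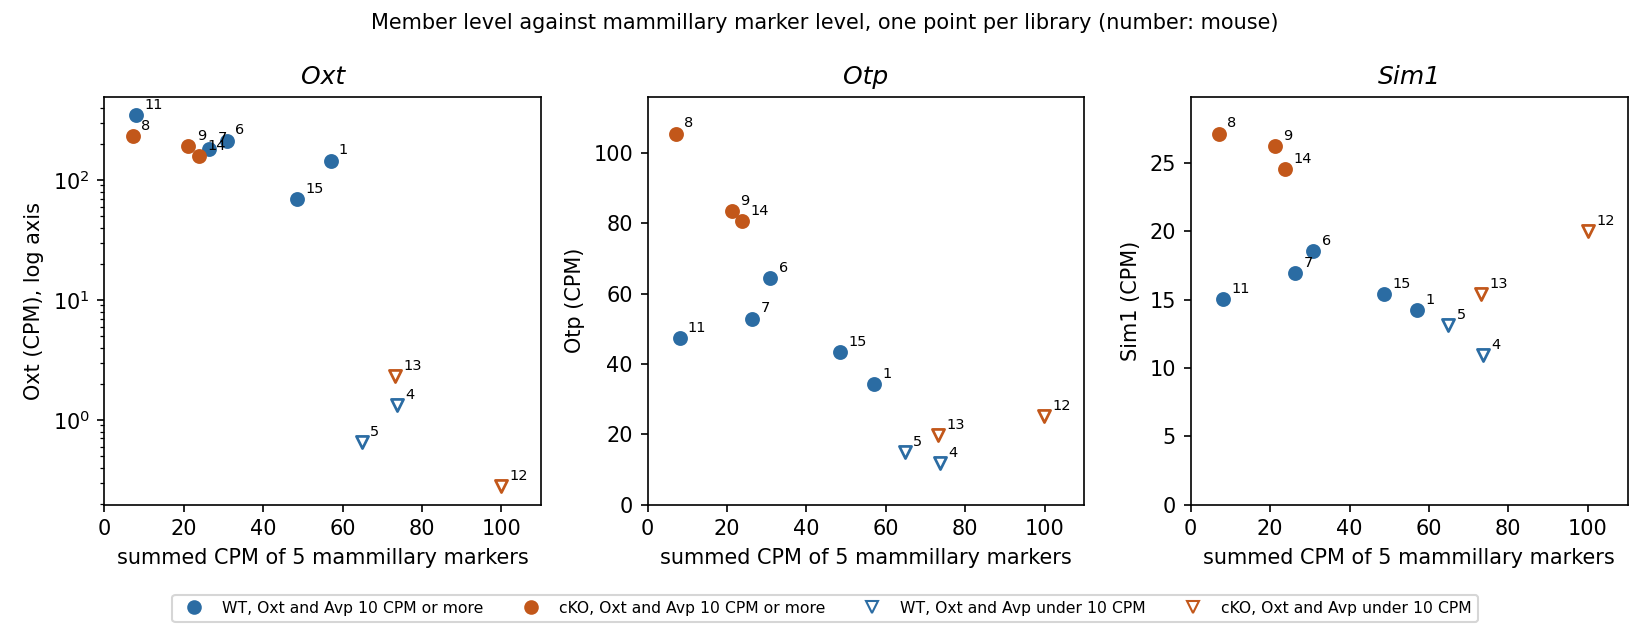
Oxt (log axis), Otp and Sim1 in CPM against the summed CPM of 5 mammillary markers, 1 point per library with its mouse number. The 4 open triangles, at sums of 64.8 CPM and more, are lowest for Oxt and Otp, and the 3 filled cKO points are highest for Sim1.

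To compare factors with hormones within a mouse, the log2 ratio of each factor to each hormone, each as CPM + 1, was taken in every library, and the group means of the 16 ratios were compared by a two-sided exact permutation test with Benjamini-Hochberg adjustment over the 16. Over the 12 libraries 3 ratios passed. Sim1 to Sst was -2.41 to -1.84 in WT and -1.31 to -0.74 in cKO, so the groups did not overlap. Its means were -2.12 ± 0.20 (SD, n = 7) and -1.02 ± 0.22 (SD, n = 5), a difference of 1.096 (exact permutation p = 0.00126, the smallest possible, adjusted p = 0.0202). Otp to Crh was 1.94 to 3.26 in WT and 3.57 to 4.00 in cKO, also without overlap, with a difference of 1.16 (exact permutation p = 0.00253, adjusted p = 0.0202). Otp and Crh were both low in the 4 libraries set apart, and their ratio was 2.13 in WT 4, 2.25 in WT 5, 3.60 in cKO 12 and 3.57 in cKO 13. Pou3f2 to Sst differed by 0.65 (exact permutation p = 0.00631, adjusted p = 0.0337), and its groups overlapped. The 8 ratios to Oxt or Avp did not pass, with adjusted p from 0.462 to 0.784 by the same exact permutation test.

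With 8 libraries 0 of the 16 ratios passed, and the smallest adjusted p by the exact permutation test was 0.0952, while 6 ratios had an unadjusted p under 0.05. The smallest unadjusted p that 5 against 3 libraries allow is 0.0179, so a single ratio cannot pass after adjustment over 16 however large its difference. Otp to Sst differed by 1.47 there, from -0.70 ± 0.14 (SD, n = 5) in WT to 0.78 ± 0.35 (SD, n = 3) in cKO, without overlap. Sim1 to Sst differed by 1.25, Sim1 to Crh by 0.88, Otp to Crh by 1.11, Pou3f2 to Sst by 0.85 and Arnt2 to Sst by 0.74, each also without overlap between the groups, and these are the same 6 ratios. Sim1 to Avp differed by -0.01, from -1.98 ± 0.74 (SD, n = 5) in WT to -1.99 ± 0.18 (SD, n = 3) in cKO, with a WT range of -2.63 to -0.87 that holds all 3 cKO values.

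**Figure D5:**
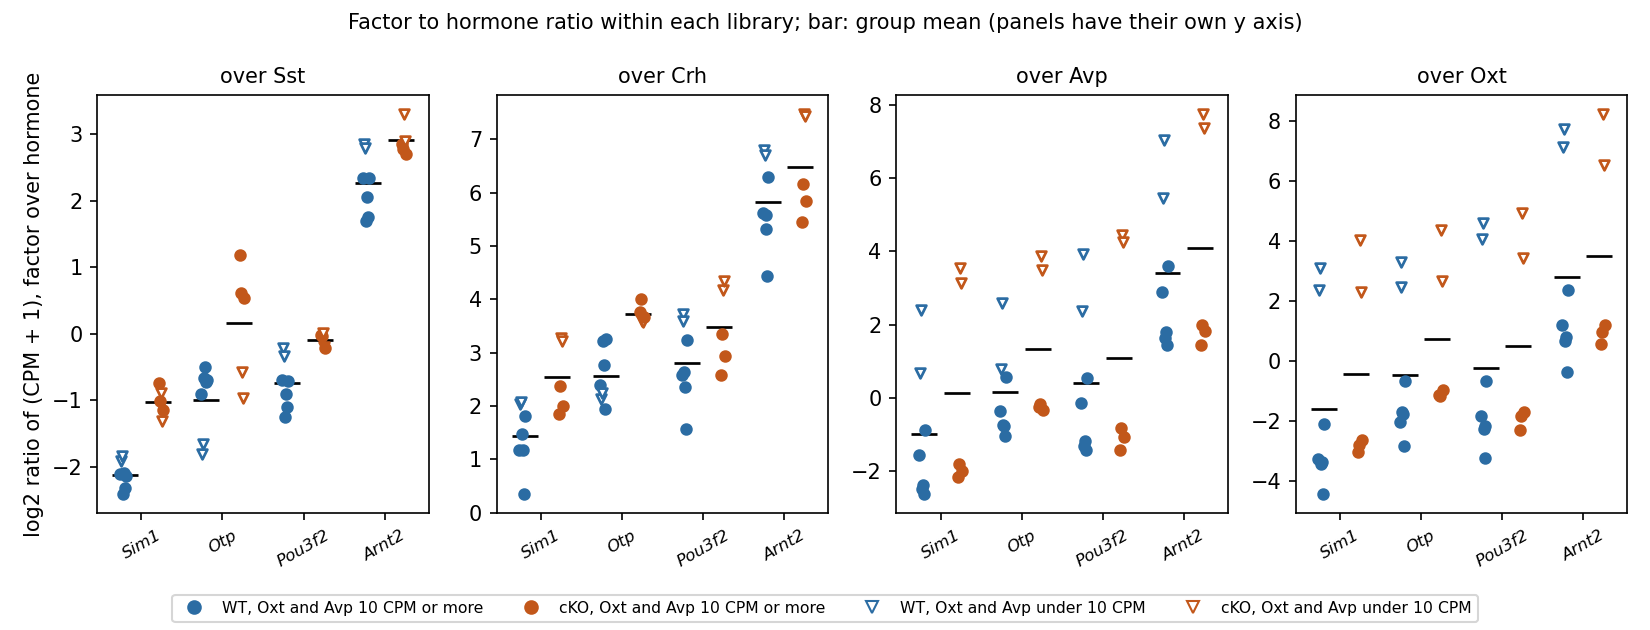
Log2 ratio of each factor to each hormone within each library, with panels by hormone, a bar at each group mean and a y axis per panel. In the first panel the 7 WT points of Sim1 to Sst all lie below the 5 cKO points; in the Oxt and Avp panels the 4 open triangles per factor lie above the filled points of both groups.

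Correlations were computed over the 8 libraries only, after taking out the group means of log2(CPM + 1), since the 4 libraries set apart form a cluster of their own. None of the 45 member pairs passed a Benjamini-Hochberg adjusted p of 0.05 by the exact permutation test within groups (720 permutations). In this test a single pair cannot pass after adjustment over 45 however strong its correlation. An unadjusted p under 0.05 for Pearson's r was found for 9 pairs. Of these, 3 hold Oxt, and nothing is drawn from their p, because Oxt helped choose the 8 libraries. Sim1 and Otp had r = 0.93 and Spearman's rho = 0.83 (exact permutation p = 0.00833 and 0.0264, adjusted p = 0.10 and 0.167), and r = 0.77 without WT 6 and WT 1. Pou3f2 and Arnt2 had r = 0.89 and rho = 0.90 (exact permutation p = 0.00278 and 0.00833, adjusted p = 0.0625 and 0.167), and r = 0.89 without cKO 9 and WT 11. Arnt2 and Crh went in opposite directions, with r = -0.98 and rho = -0.98 (exact permutation p = 0.00278 and 0.00417, adjusted p = 0.0625 and 0.167), and r = -0.94 without WT 11 and WT 15. Pou3f2 and Crh had r = -0.88 and rho = -0.86 (exact permutation p = 0.0111 and 0.0208, adjusted p = 0.10 and 0.167), and r = -0.79 without cKO 9 and WT 11. Arnt2 and Crhr1 had r = 0.81 and rho = 0.74 (exact permutation p = 0.0319 and 0.0722, adjusted p = 0.205 and 0.242). Crh and Crhr1 had r = -0.78 and rho = -0.83 (exact permutation p = 0.0431 and 0.0292, adjusted p = 0.215 and 0.167). Without WT 11 and WT 15 their r was 0.77 and -0.75. Pairs with Oxt or Avp were part of the 45 tested. Because these genes chose the 8 libraries, their correlations are given as descriptions, without p-values. Oxt and Avp had r = 0.88 and rho = 0.88, and r = 0.82 without WT 15 and WT 11. Sim1 had r = 0.24 with Oxt (rho = 0.33) and r = 0.59 with Avp (rho = 0.50). For Otp the values were r = 0.42 with Oxt (rho = 0.76) and r = 0.71 with Avp (rho = 0.79). Pou3f2 had r = -0.61 with Oxt (rho = -0.43) and r = -0.41 with Avp (rho = -0.38). Arnt2 had r = -0.87 with Oxt (rho = -0.62) and r = -0.66 with Avp (rho = -0.57), and without WT 11 and WT 15 these were -0.31 and -0.22. Oxt with Crh had r = 0.91 and rho = 0.71, a relation that rests on WT 15 and WT 11, since r was 0.41 without them.

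Genes most like 4 members over the mice were ranked by Pearson's r of deviations from group means over the 12 libraries, where values from 0.935 to 0.992 include the step between the 4 libraries and the rest, so r over the 8 is given beside each name as a description. For Sim1 the 5 closest were Pde7a (0.96 over 8 libraries), Trim27 (0.82), Otp (0.93), Racgap1 (0.64) and Islr2 (0.69). For Otp they were Susd1 (0.78), Islr2 (0.72), Cckar (0.62), Stk32a (0.83) and Six3 (0.83). For Oxt they were Nox4 (0.77), Ucn3 (0.93), Avp (0.88), Sidt1 (0.76) and Cckar (0.41), and for Avp they were Six3 (0.90), Six3os1 (0.88), Ucn3 (0.94), Fezf2 (0.91) and Oxt (0.88). Otp was among the 5 closest to Sim1, and Oxt and Avp were among the 5 closest to each other, while neither Oxt nor Avp was among those closest to Sim1 or Otp. Pde7a, the closest to Sim1, covered a narrow range of 25.8 to 32.9 CPM over all 12 libraries.

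Among 60 further genes listed with these neurons, 57 were tested, and 1 rose and 7 fell in the libraries labelled cKO, against 6.54% of all genes higher and 7.60% lower. Their median log2 difference was -0.01, beside 0.01 for all genes. These calls depended on tissue markers: 4 of the listed genes passed with the thalamic score as a covariate, 1 with the neuron score and 18 with the mammillary score. Of 10 related transcription factors 0 rose and 2 fell: Arnt, a dimer partner of Sim1 like Arnt2, at -0.29 (SE 0.07, limma adjusted p = 0.0189), and Nr3c1, the glucocorticoid receptor, at -0.25 (SE 0.07, adjusted p = 0.0297). Arnt was at 35.0 ± 3.75 CPM (SD, n = 5) in cKO and 42.9 ± 3.34 CPM (SD, n = 7) in WT. The Pou3f2 relatives Pou3f1, Pou3f3 and Pou3f4 did not pass. With the 8 libraries Arnt was at -0.28 (limma adjusted p = 0.0670) and Nr3c1 at -0.25 (adjusted p = 0.127), differences of similar size that did not pass.

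Of 13 other peptides and markers of these neurons 0 rose and 3 fell. They were Penk, the enkephalin precursor, at -0.45 (SE 0.10, limma adjusted p = 0.0143), Tac1, the substance P precursor, at -0.63 (SE 0.14, adjusted p = 0.0146), and Calb1, a calcium-binding protein, at -0.55 (SE 0.16, adjusted p = 0.0364). All 3 passed over the 8 libraries as well. Trh, the thyrotropin-releasing hormone made by paraventricular neurons, was at 2.02 to 71.7 CPM in WT and 13.8 to 77.5 CPM in cKO and did not pass (adjusted p = 0.686, and 0.749 over the 8 libraries). Pdyn, the dynorphin precursor that vasopressin neurons also make, had a difference of 0.46 (SE 0.37, adjusted p = 0.427), and of 0.63 (adjusted p = 0.117) over the 8 libraries.

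None of the 11 tested genes on the list of receptors and binding proteins, which also holds the peptides Ucn and Ucn3, passed limma in either direction. Sstr1 (0.0318) and Sstr3 (0.0142) had an unadjusted limma p under 0.05. Avpr1b, Avpr2 and Cort, a relative of Sst, were below the minimum of 1 CPM and not tested. Of 12 genes for peptide processing and granules 1 rose, Scg3, a granule protein, at 0.17 (SE 0.04, limma adjusted p = 0.0223), with no overlap between 219 to 259 CPM in WT and 262 to 281 CPM in cKO. Scg3 again differed by 0.17 over the 8 libraries and did not pass (limma adjusted p = 0.0789). The convertase Pcsk2 had a difference of -0.22 (adjusted p = 0.0821), and of -0.25 (adjusted p = 0.129) over the 8 libraries. Of 11 genes listed for osmotic and magnocellular responses, which include the astrocyte marker Aqp4, 0 rose and 2 fell. Rasd1, a dexamethasone-induced Ras relative, was at 10.7 ± 3.59 CPM (SD, n = 5) in cKO and 25.8 ± 8.19 CPM (SD, n = 7) in WT, a log2 difference of -1.20 (SE 0.22, limma adjusted p = 0.00667) without overlap. Fosl2, an immediate early transcription factor, was at -0.66 (SE 0.12, adjusted p = 0.00614), also without overlap. Rasd1 was at -0.98 (limma adjusted p = 0.0428) and Fosl2 at -0.40 (adjusted p = 0.0290) over the 8 libraries. Fos itself was at 11.1 to 48.7 CPM in WT and 14.9 to 37.2 CPM in cKO and did not pass (difference -0.42, adjusted p = 0.419), with a difference of -0.02 (adjusted p = 0.977) over the 8 libraries. Over the 8 libraries 5 of 55 tested genes of these lists passed, all lower in cKO: Penk, Tac1, Calb1, Rasd1 and Fosl2. Of all 15364 genes tested there, 948 were lower and 632 higher, 10.3% in either direction. Counted in either direction, the 5 of 55 are close to the share over all genes.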

How the data were processed

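The tables the authors deposited give normalized CPM per gene in 12 libraries and, for their own comparison, log2 fold changes, p-values and false discovery rates. CPM divides the reads of a gene by a scaled library size. Per the submitters' processing notes, the tools were bcl2fastq, FastQC 0.11.9, STAR 2.7.9a, SAMtools, Subread and featureCounts. The genome build, annotation and strand setting are not given in the sources used here. The CPM values were whole multiples of 1 step per library for 100% of values (tolerance 0.01 reads), so whole reads were recovered, and 0 sample columns were left unused. The table held CPM, so the main test was limma 3.58.1 (R 4.3.3, lmFit and eBayes with trend, no covariates) on log2(CPM + 1) over 15359 genes whose mean reached 1 CPM, with Benjamini-Hochberg adjustment over all of them. On the recovered reads edgeR 4.0.16 (quasi-likelihood) called 2097 genes and DESeq2 1.42.0 called 2747. Replicates differed beyond sampling noise (chi-square per degree of freedom of 3.04 to 26.3 over 31 pairs), and the labels give no batch. Single values and ratios were compared by two-sided exact permutation tests, whose smallest p is 0.00126 over 12 libraries and 0.0179 over 8.

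Members and lists were chosen with earlier results of these data known. Named genes were the members, Smc3, listed genes past the threshold and the 5 genes most like Sim1, Otp, Oxt and Avp; any other gene was named with its values in view. The planned correlation over 12 libraries is given only as a count of pairs and in the ranking of like genes, since 4 libraries form a separate cluster. For single pairs the 8 remaining were used. Alternatives were another pseudocount, scaling, filters, eBayes options, arrayWeights, edgeR, DESeq2, thalamic and neuron scores (mean log2(CPM + 1) of a marker list) as covariates, thinning of WT 1 and leaving out each mouse. 1 gene of the mammillary marker list is not reported here and was left out of its sum and score. Leaving out 4 libraries and the mammillary score were added after seeing the data. The fits were tested on simulated data, where DESeq2 made more false calls than its threshold allows. Gene positions and exon lengths came from GENCODE M21 and promoters from RefSeq.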

Additional observations from a re-analysis of the deposited data

Results flagged for a closer look

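Oxtr in cKO 12 was at 11.4 CPM, and the other 4 libraries labelled cKO were at 6.25 to 7.74 CPM. Its gap to the nearest library, as a share of the range of the group, was 0.7101 against a critical value of 0.710 for 5 libraries, so it stands at the edge of that test. Of 20 groups (10 members in WT and cKO) 1 met the test, and chance gives about 1. Without cKO 12, Oxtr passed the threshold in the limma fit. The same library had the highest mammillary marker sum, 99.97 CPM, and the lowest Oxt and an Avp level of 0.793 CPM.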

How the results depend on the processing

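Without WT 4, WT 5, cKO 12 and cKO 13, 4 members, 5 related genes and 0 ratios passed, against 1, 8 and 3. The 2 counts of ratios are not comparable, because 8 libraries are too few for a single ratio to pass after adjustment. Leaving out each mouse in turn gave 1158 to 2302 genes past the threshold (1158 without WT 1), 0 to 2 members, 6 to 9 related genes and 1 to 5 ratios, with Sim1 to Sst past it each time. No member passed without cKO 9 or cKO 14; Sst joined Sim1 without WT 4 or WT 5, and Oxtr did without cKO 12. With arrayWeights 5126 genes, 5 members (Sim1, Pou3f2, Sst, Oxtr and Crhr1) and 17 related genes passed, with the thalamic score 766, 0 and 4, with the neuron score 244, 0 and 1, and with the mammillary score 3298, 5 and 18; edgeR and DESeq2 each called 2 members, Sim1 and Sst. Median centring split all calls into 1377 higher and 1054 lower, against 1004 and 1168. The Sim1 difference was 0.51 with the thalamic and 0.82 with the neuron score, neither past the threshold, and 0.49 to 0.69 over mice left out. Signs turned for Arnt2 with the thalamic score (-0.036), for Oxt (0.49 thalamic, 0.53 neuron, 0.18 over 8 libraries, -1.41 to 0.55 over mice left out) and for Avp (0.011 with arrayWeights, 0.25 with edgeR and with DESeq2, 0.38 thalamic, 0.23 neuron, 0.68 over 8 libraries, -1.20 to 0.33 over mice left out). Other members, none past the threshold here, also moved with single mice: Otp from 0.36 (without cKO 8) to 0.95 (without cKO 13), Pou3f2 from 0.051 (without cKO 9) to 0.20 (without cKO 13), Arnt2 from 0.065 (without WT 11) to 0.16 (without cKO 13), Crh from -0.78 (without cKO 8) to -0.25 (without cKO 13) and Crhr1 from -0.54 (without cKO 12) to -0.20 (without cKO 8). Ratio differences turned over the 8 libraries for Sim1 to Avp (-0.0075), Pou3f2 to Avp (-0.41), Arnt2 to Oxt (-0.019) and Arnt2 to Avp (-0.52). Over mice left out they ranged for Pou3f2 to Oxt from -0.39 to 1.53, for Pou3f2 to Avp from -0.17 to 1.31, for Arnt2 to Oxt from -0.47 to 1.54 and for Arnt2 to Avp from -0.25 to 1.33. Why these values moved was not tested. Over 12 libraries 29 member pairs passed as correlated after group centring. On raw values, without group centring, 2 pairs passed over the 8 libraries. The group-centred test over 8 libraries is too small for a single pair to pass, so its count of 0 is not comparable. Of 269 further values of single members 235 kept direction and side of the threshold, 4 lost it, 16 gained it and 14 turned; of 224 ratio values these were 191, 15, 6 and 12. No paired analysis was possible because the groups share no mouse numbers. A 5 CPM minimum gave no value for Crh, and the WT-alone correlation was not run, with 5 libraries left. Oxt and Avp in the 4 low libraries rest on 6 to 131 reads.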
